A study of Mus musculus with 12 samples.

Results

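The transcripts described here encode 10 proteins that bind AU-rich or stem-loop elements of messenger RNA, and they were picked by name as known binders of Tnf mRNA. The choice was made with earlier results of these data known. All 10 were found among the 46603 genes counted. They are Zfp36 (tristetraprolin), Zfp36l1, Zfp36l2, Elavl1 (HuR), Tia1, Tial1 (TIAR), Khsrp (KSRP), Hnrnpd (AUF1), Rc3h1 (Roquin-1) and Zc3h12a (Regnase-1). On GRCm38, Zfp36 (ENSMUSG00000044786) lies at chr7:28376784-28380253, Zfp36l1 (ENSMUSG00000021127) at chr12:80107754-80113013, Zfp36l2 (ENSMUSG00000045817) at chr17:84183931-84187947 and Zc3h12a (ENSMUSG00000042677) at chr4:125118423-125127840, all on the minus strand. Bulk poly-A RNA was sequenced from 4 groups of 3 mouse libraries, namely TNFdARE ileum, WT ileum, TNFdARE synovium and WT synovium. TNFdARE mice carry, in every cell of the body, a Tnf allele whose 3′ untranslated region (UTR) has lost its AU-rich element, and they are a model of ileitis and arthritis driven by excess TNF. The WT animals were littermates. Whether the allele was carried on 1 or both chromosomes, the age and the sex are not stated, nor is it stated whether ileum and synovium of equal replicate number came from 1 animal. The labels call the 3 libraries of a group biological replicates.

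An AU-rich element is a run of overlapping ATTTA pentamers in the 3′ UTR of short-lived transcripts such as those of cytokines. Tristetraprolin and its relatives Zfp36l1 and Zfp36l2 bind it through paired zinc fingers and recruit the CCR4-NOT complex, which removes the poly-A tail and starts decay. KSRP and AUF1 are also associated with decay, HuR with stabilisation, and TIA-1 and TIAR with translational silencing of Tnf. Roquin-1 and Regnase-1 act on stem-loops instead, the first by recruiting deadenylases and the second by cutting the RNA itself. The TNFdARE allele removes the first kind of site from Tnf and leaves these proteins and their other target transcripts in place.

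The sequences below show the target element and the matching stretches in the UTRs of the factors themselves, since several of the 10 transcripts carry the element that their proteins bind. They are reference sequences of GENCODE vM21 transcripts on GRCm38, printed 5′ to 3′ on the transcribed strand, and each is the window of 30 bases in the 3′ UTR with the most TTATTTATT nonamers and then the most ATTTA pentamers, with ATTTA in capitals. The Tnf window lies at chr17:35199677-35199706 on the minus strand, and it lies within the element that the allele lacks. The other windows lie at chr7:28376957-28376986 on the minus strand (Zfp36), chr12:80108166-80108195 on the minus strand (Zfp36l1), chr17:84184917-84184946 on the minus strand (Zfp36l2), chr8:4285776-4285805 on the minus strand (Elavl1) and chr4:125119045-125119074 on the minus strand (Zc3h12a).
Tnf: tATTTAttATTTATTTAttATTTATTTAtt
Zfp36: ctttATTTAtgacgactttATTTAttgtat
Zfp36l1: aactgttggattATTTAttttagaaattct
Zfp36l2: aaaaactATTTAacttATTTAttatcttgt
Elavl1: tATTTATTTATTTATTTAtttttATTTAtt
Zc3h12a: tgtatctctgtcATTTAaggagacgctgcc
The Tnf window held 5 overlapping or adjacent ATTTA pentamers and 4 copies of the nonamer TTATTTATT, the preferred site of tristetraprolin. The Elavl1 window held equally many of each. In the whole 3′ UTR the counts of ATTTA were 8 in Tnf, 3 in Zfp36, 9 in Zfp36l1, 5 in Zfp36l2, 17 in Elavl1, 20 in Rc3h1, 10 in Hnrnpd, 8 in Tia1, 3 in Tial1, 1 in Khsrp and 3 in Zc3h12a.

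At least 1 ATTTA stood in the 3′ UTR of all 10 genes, which is common, as 62.7% of 20710 mouse coding genes hold it on the transcribed strand. The nonamer is rarer: it stood in 5 of the 10, against 7.1% of coding genes. Elavl1 had 8 copies of it, and Zfp36, Zfp36l1, Zfp36l2 and Rc3h1 had 1 copy each. Only 0.58% of coding genes hold 3 copies or more. The nonamer contains the pentamer, so both counts share letters, and longer UTRs hold more matches of either kind. The stem-loop through which Roquin-1 binds Tnf lies 3′ of the AU-rich element at chr17:35199584-35199600 on the minus strand, with the 9 letters of the core TTCTGTGAA in capitals.
Tnf stem-loop: tgttTTCTGTGAAaacg
Of the 10 genes, Rc3h1 itself held this core in its 3′ UTR, in 2 copies, and 2.17% of coding genes hold it at least once.

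Library totals lay between 14267834 and 16224402 counts, so that 1 count was worth 0.0616 to 0.0701 CPM (counts scaled to library size), and the 10 genes had between 318 and 4568 counts in every library. Levels below are CPM after scaling by the trimmed mean of M-values (TMM). Tnf, the modified gene, had 82.7, 17.2 and 47.3 CPM in replicates 1, 2 and 3 of TNFdARE ileum, against 2.63, 1.39 and 1.62 CPM in WT ileum. It had 38.4, 32.5 and 28.3 CPM in TNFdARE synovium, against 2.15, 2.02 and 1.89 CPM in WT synovium. Its levels thus followed the genotype labels in all 12 libraries. The ileum libraries were rich in epithelial markers such as Epcam and Vil1 (a sum over 10 genes of 12452 to 17704 CPM in TNFdARE, against 20490 to 23230 CPM in WT ileum), and of these 10 Slc10a2 and Cdx2 were at 0 counts in synovium. The synovium libraries were rich in fibroblast markers such as Prg4 and Thy1, and they also held skeletal muscle transcripts in unequal amounts. TNFdARE ileum replicate 2 had the lowest macrophage marker sum of its group, at 1481 CPM, against 5775 and 3436 CPM in replicates 1 and 3 and 474 to 637 CPM in WT ileum. Xist stood at 827 to 1514 CPM in replicate 3 of every group and at no more than 0.693 CPM in the others, so each group held 1 female and 2 male samples by this measure, and genotype and sex were not confounded.

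In the synovium, 4 of the 10 transcripts were higher in TNFdARE than in WT mice and none was lower. These 4 were the decay-promoting zinc finger genes Zfp36, Zfp36l1 and Zfp36l2 and the endonuclease gene Zc3h12a. All other 6, which encode HuR, TIA-1, TIAR, KSRP, AUF1 and Roquin-1, had log2 fold changes between -0.04 and 0.08 that did not pass the test. The test was edgeR's quasi-likelihood test with Benjamini-Hochberg adjustment over all 15599 genes, of which 23.8% passed at an adjusted p under 0.05, made up of 13.1% higher and 10.7% lower in TNFdARE.

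**Figure D1:**
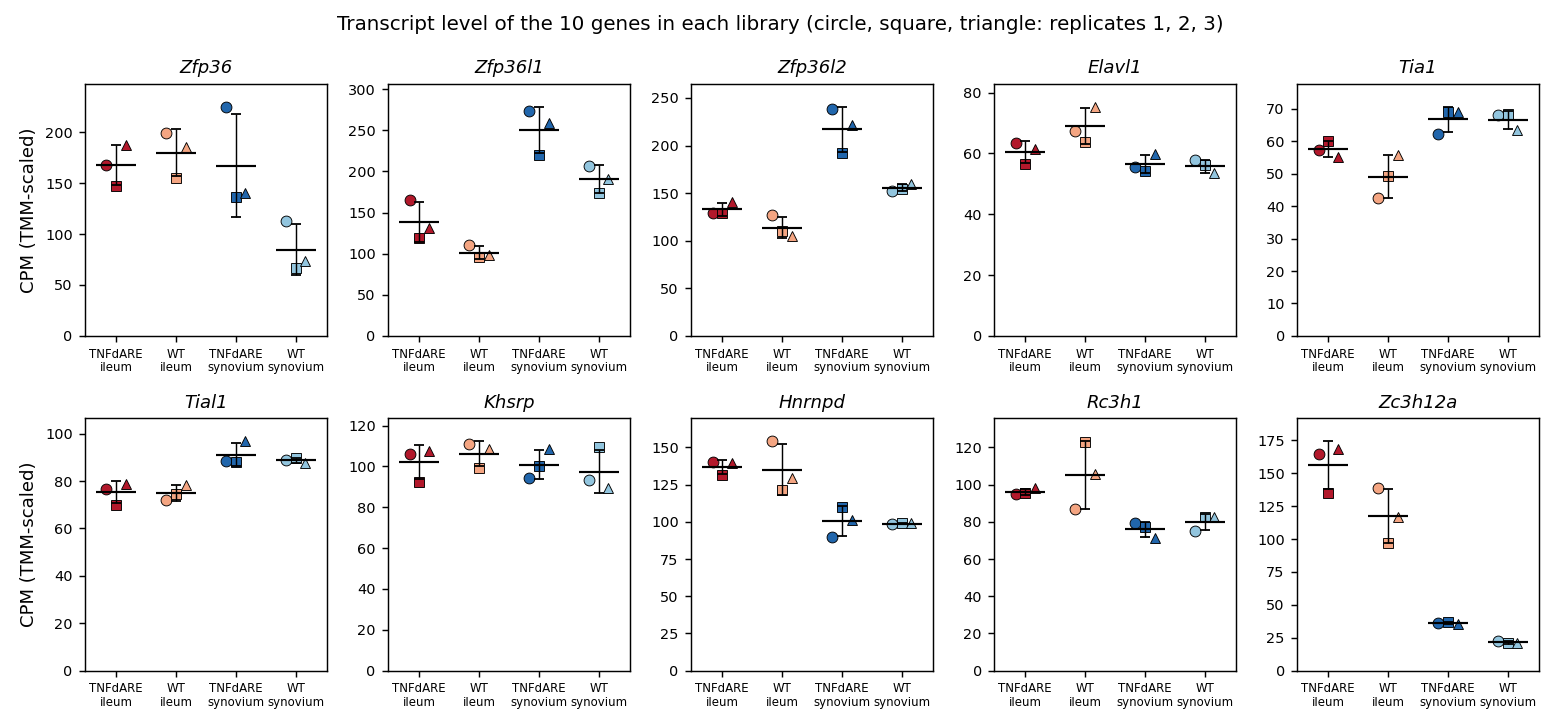
CPM of each of the 10 genes (vertical axes, from 0) in the TNFdARE and WT libraries of ileum and synovium. Symbols are single libraries, horizontal lines are means and error bars are SD of 3 libraries; Zc3h12a lies between 35.2 and 37.3 CPM in TNFdARE synovium and between 20.7 and 22.7 CPM in WT synovium, whereas Tial1, Khsrp and Hnrnpd overlap between genotypes in both tissues.

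Zc3h12a, whose product cleaves stem-loops of Tnf, Il6 and other inflammatory transcripts, had 36.1, 37.3 and 35.2 CPM in TNFdARE synovium, against 22.7, 21.1 and 20.7 CPM in WT synovium. The groups did not overlap and the libraries of a group lay close together. The rise was 0.78 ± 0.08 on the log2 scale (SE, n = 3 each, edgeR adjusted p = 0.00105), or 1.72-fold. It held in all 17 other fits, with log2 fold changes from 0.75 to 0.86 and adjusted p between 1.16e-09 and 0.025.

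Zfp36 encodes tristetraprolin, whose loss in mice causes a TNF-dependent arthritis. It had 225, 136 and 140.2 CPM in TNFdARE synovium, against 113, 66.8 and 73.4 CPM in WT synovium. Replicate 1 was the highest library in both genotypes, and the lowest TNFdARE library lay above the highest WT library. The log2 fold change was 1.01 ± 0.28 (edgeR adjusted p = 0.0477), with means of 167 ± 50.2 CPM in TNFdARE and 84.5 ± 25.1 CPM in WT (SD, n = 3 each). Within a replicate number the ratio of TNFdARE to WT was 1.99, 2.04 and 1.91 in replicates 1, 2 and 3, so the genotypes differed by nearly the same factor in each. With replicate number as a block, a pairing that the labels do not state, the edgeR adjusted p was 0.000374. Without the block the call also held with DESeq2 (adjusted p = 0.000455), limma-voom (0.0277), library size alone (0.0329), the fit over all 12 libraries (0.0149) and without WT replicate 1 (0.025). It was lost with RLE size factors (adjusted p = 0.0514), with no filter on low counts (0.138), in both FPKM fits (0.051 and 0.0531), and without TNFdARE replicate 1 (log2 fold change 0.74, 0.0871), 2 (0.0721) or 3 (0.0815) or WT replicate 2 (0.117) or 3 (0.14). Over all fits the adjusted p ranged from 0.000374 to 0.14, and the log2 fold change stayed between 0.74 and 1.75.

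Zfp36l2 had 239, 192 and 221 CPM in TNFdARE synovium, against 153, 155 and 159.6 CPM in WT synovium. The WT libraries were nearly equal and all TNFdARE libraries lay above them, a log2 fold change of 0.51 ± 0.09 (edgeR adjusted p = 0.00805). Zfp36l1 had 274, 219 and 259 CPM in TNFdARE synovium, against 207, 174 and 191 CPM in WT synovium, again without overlap, and its log2 fold change was 0.42 ± 0.10 (edgeR adjusted p = 0.0268). Both genes encode paralogs of tristetraprolin that are best known for roles in lymphocyte and blood cell development. Within replicate numbers the ratios were 1.56, 1.24 and 1.39 for Zfp36l2 and 1.32, 1.26 and 1.36 for Zfp36l1. The call of Zfp36l2 was lost in both FPKM fits (adjusted p = 0.0528 and 0.0542), and that of Zfp36l1 in the same fits (0.0533 and 0.055), in the fit over all 12 libraries (0.0504) and without TNFdARE replicate 1 (0.0819) or 3 (0.0839) or WT replicate 2 (0.0727) or 3 (0.0782).

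These 4 were also the genes of the 10 whose TNFdARE and WT values lay fully apart in the synovium, against 43.9% of all genes tested there. The median log2 fold change was 0.07 over the 10 genes and 0.00 over all genes. In whole tissue a change in the number of cells of a type and a change in RNA per cell cannot be told apart. The cell makeup of the synovium libraries differed by genotype: 12 of 14 macrophage markers were higher in TNFdARE, and their summed level was 6483 to 8409.9 CPM in TNFdARE and 2316 to 2853 CPM in WT, with none of the 14 at 0. The summed level of 11 skeletal muscle markers was 2031 to 8368 CPM in TNFdARE and 10870 to 23607 CPM in WT, with 1 of the 11 passing the test, as lower. The summed level of 11 neutrophil markers overlapped, at 1789 to 5754 CPM in TNFdARE and 2257 to 5338 CPM in WT. With the muscle level as a covariate, 2 of the 4 calls remained, Zfp36 (1.75, edgeR adjusted p = 0.0179) and Zc3h12a (0.84, 0.025), and Zfp36l1 (0.54, 0.149) and Zfp36l2 (0.54, 0.107) kept their direction without passing. The calls over all genes fell to 622 in that fit. T cell markers summed to 60.5 to 73.4 CPM in TNFdARE and 59.0 to 65.8 CPM in WT synovium, while 1 of 11 was higher and 3 were lower in TNFdARE (median log2 fold change -0.65). B cell markers summed to 82.2 to 169.95 CPM in TNFdARE and 181 to 367 CPM in WT synovium. The sum of 10 synovial markers was 26527 to 27815 CPM in TNFdARE and 37042 to 53616 CPM in WT, but the members went both ways, with 3 of 10 higher and 3 lower (median log2 fold change -0.17). The sum of the 10 epithelial markers was 275 to 559.6 CPM in TNFdARE and 26.4 to 41.4 CPM in WT synovium. Only 4 of them could be tested, and 1 was higher, with a median log2 fold change of 0.125 over the 4. The part of these cell types in the results was not tested.

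Zfp36 is also an immediate early gene, induced within minutes by growth factors and by handling of tissue. The summed level of 14 other immediate early genes was 1535, 1285 and 1339 CPM in replicates 1, 2 and 3 of TNFdARE synovium. In WT synovium it was 2149.8, 607 and 810 CPM. In both genotypes the replicates ranked by this sum as they did by Zfp36, with replicate 1 the highest. Of the 14, Klf6 was higher in TNFdARE (0.55 ± 0.10, edgeR adjusted p = 0.00787) and Egr3 was lower (-1.31 ± 0.31, 0.0274), which makes 2 of 14, or 4 of 14 with replicate number as a block. Of all genes tested in the synovium, 23.8% passed in the fit without the block. Without WT replicate 1 there were 7 of 14, without WT replicate 2 there were 3, and without any 1 of the others there was 1. With the summed level as a covariate, a fit added after the data were seen, all 4 calls remained, and the log2 fold change of Zfp36 was 0.83 (edgeR adjusted p = 0.0323).

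None of the 6 remaining genes passed in the synovium. Elavl1, whose product HuR protects AU-rich transcripts from decay, had 55.5, 54.3 and 59.95 CPM in TNFdARE and 57.7, 56.1 and 53.6 CPM in WT synovium. Its log2 fold change was 0.05 ± 0.07 (edgeR adjusted p = 0.647), so its error was of the same size as that of Zc3h12a while its estimate lay near 0. Tia1 and Tial1, the genes of the translational silencers, had log2 fold changes of 0.03 ± 0.07 and 0.07 ± 0.07, Khsrp and Hnrnpd, the genes of KSRP and AUF1, of 0.08 ± 0.10 and 0.06 ± 0.09, and Rc3h1 of -0.04 ± 0.07 (edgeR adjusted p between 0.497 and 0.782). The libraries of both genotypes overlapped for all 6. Hnrnpd was the steadiest within a group, with 98.4, 99.0 and 99.0 CPM in WT synovium, although TNFdARE synovium spread over 90.1, 110.2 and 102 CPM.

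**Figure D2:**
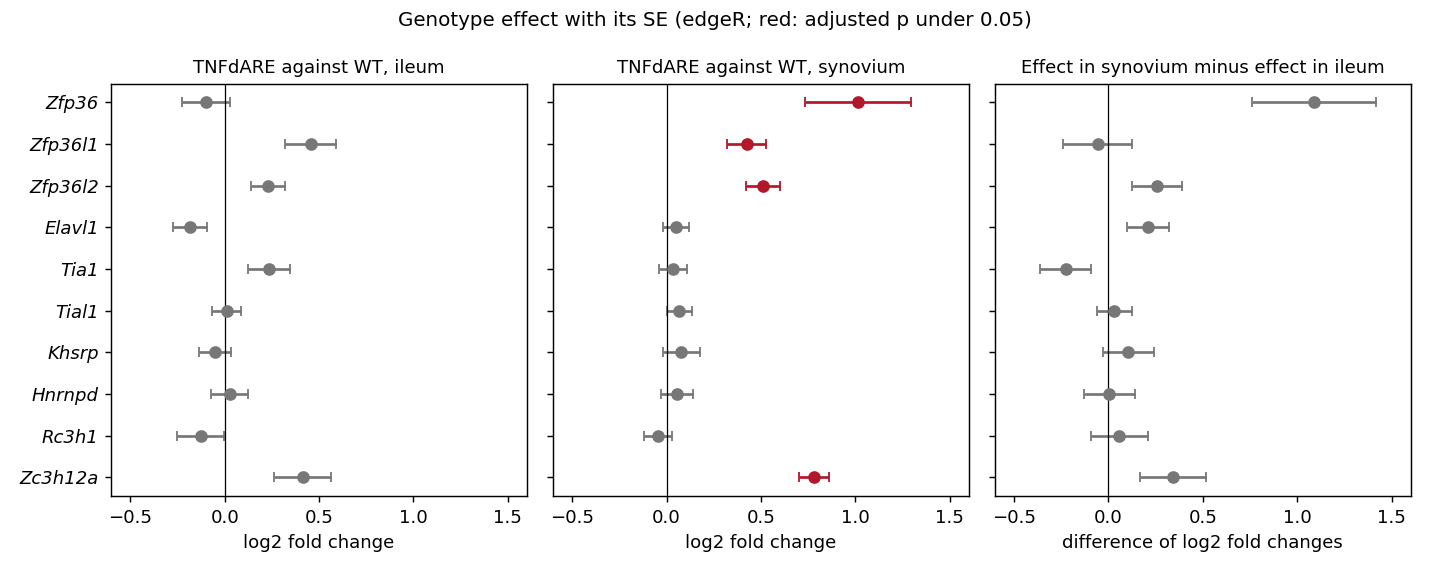
Genotype effect on each of the 10 genes, as log2 fold change of TNFdARE over WT in the ileum (left) and the synovium (middle), and as effect in synovium minus effect in ileum (right). Points are estimates, bars are SE, and red marks an edgeR adjusted p under 0.05, which holds for Zfp36, Zfp36l1, Zfp36l2 and Zc3h12a in the synovium panel.

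In the ileum none of the 10 passed edgeR's test, although Zfp36l1 and Zc3h12a had estimates of similar size to those of Zfp36l1 and Zfp36l2 in the synovium. The share of all 15462 genes that passed was 5.68%, made up of 4.12% higher and 1.57% lower in TNFdARE. At an unadjusted p under 0.05 there were 3 of the 10, Zfp36l1, Zc3h12a and Zfp36l2, all higher in TNFdARE, a share close to the 30.5% of all genes. DESeq2 called 1 of the 10 and limma-voom called 0. Zfp36l1 had 165, 119 and 131 CPM in TNFdARE ileum, against 111, 95.6 and 97.9 CPM in WT ileum. The groups did not overlap, and the log2 fold change was 0.46 ± 0.13 (edgeR adjusted p = 0.0821). With replicate number as a block Zfp36l1 passed (0.44, edgeR adjusted p = 0.0435), as it did with DESeq2 (0.0347), in the fit over all 12 libraries (0.0386) and without TNFdARE replicate 2 (0.56, 0.00948).

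Zc3h12a had 164, 135 and 169 CPM in TNFdARE ileum, against 139, 97.4 and 117 CPM in WT ileum. The lowest TNFdARE library lay below the highest WT library, and the log2 fold change was 0.41 ± 0.15 (edgeR adjusted p = 0.125). It passed in the fit over all 12 libraries (adjusted p = 0.0426) and without TNFdARE replicate 2 (0.52, 0.0281). Zfp36l2 had 129, 129 and 141 CPM in TNFdARE ileum, against 127, 111 and 105 CPM in WT ileum. These groups lay apart by a narrow margin, with a log2 fold change of 0.23 ± 0.09 (edgeR adjusted p = 0.148).

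Zfp36 had an estimate on the other side of 0 from its paralogs in the ileum, and near it. It had 168, 147 and 188 CPM in TNFdARE, against 199, 155 and 186 CPM in WT, and the groups overlapped. Its log2 fold change was -0.10 ± 0.13 (edgeR adjusted p = 0.638), and the ratios within replicate numbers were 0.844, 0.952 and 1.01. Tnf in the same libraries had a log2 fold change of 4.70 ± 0.68 (edgeR adjusted p = 0.0404).

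Of the other genes in the ileum, Elavl1 had 63.5, 56.6 and 61.3 CPM in TNFdARE, against 67.4, 63.9 and 75.4 CPM in WT. Its log2 fold change was -0.18 ± 0.09 (edgeR adjusted p = 0.213). All TNFdARE libraries lay below all WT libraries, so Elavl1, Zfp36l1 and Zfp36l2 made 3 of 10 genes without overlap, against 37.3% of all genes tested. Ccl25, a chemokine gene of the small intestine, overlaps the 5′ end of Elavl1 by 204 bases on the opposite strand and had 32 to 4416 counts per library, against 804 to 1072 for Elavl1. The libraries were made with a strand-marking kit, but the strand setting of the counting is not given in the sources used here, and what Ccl25 reads add to Elavl1 was not tested. Tia1 had a log2 fold change of 0.23 ± 0.11 (edgeR adjusted p = 0.203), with 57.4, 60.1 and 55.2 CPM in TNFdARE and 42.4, 49.2 and 55.7 CPM in WT ileum. Tial1 (0.01 ± 0.07), Khsrp (-0.05 ± 0.09), Hnrnpd (0.03 ± 0.10) and Rc3h1 (-0.13 ± 0.12) lay within about 1 SE of no change. WT ileum replicate 2 was the highest library for Rc3h1, at 123 CPM, against 86.96 and 106 CPM in WT replicates 1 and 3 and 95.0 to 98.0 CPM in TNFdARE.

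The median log2 fold change in the ileum was 0.02 over the 10 genes and 0.00 over all genes. The number of genes called in the ileum depended on single libraries. It was 879 with all 6, 4633 without TNFdARE replicate 2, 278 and 2 without TNFdARE replicates 1 and 3, and 0 without any 1 of the WT replicates, and limma-voom with all 6 libraries also called 0, with 4649 genes at an unadjusted p under 0.05. Immune cell markers moved in the ileum as well, where 6 of 14 macrophage markers and 6 of 7 tested neutrophil markers were higher in TNFdARE. The neutrophil sum was 170 to 617 CPM in TNFdARE and 11.5 to 19.3 CPM in WT ileum, with Ngp at 0 counts in all 6 libraries. The B cell sum was 269, 20.1 and 70.3 CPM in TNFdARE replicates 1, 2 and 3 and 12.6 to 18.2 CPM in WT. Of 7 tested B cell markers 0 passed, with 7 at an unadjusted p under 0.05 by edgeR. The epithelial sum was lower in every TNFdARE library than in any WT library. The part of these shifts in the values of the 10 genes was not tested.

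**Figure D3:**
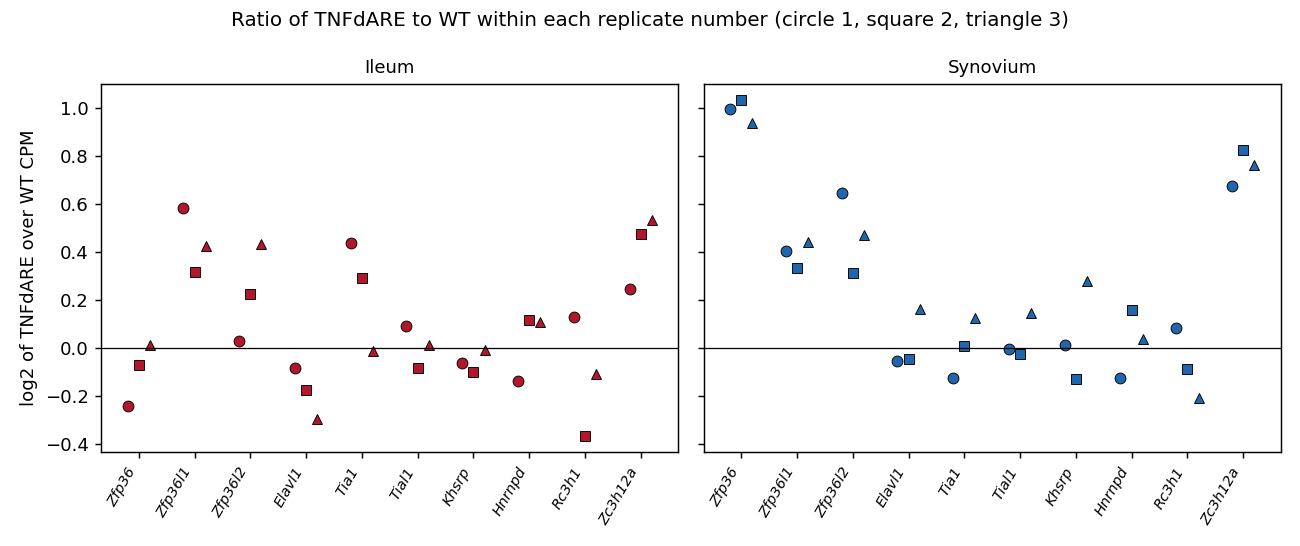
log2 of the ratio of TNFdARE to WT CPM within each replicate number, in ileum (left) and synovium (right). Each symbol is 1 pair of libraries; the Zfp36 pairs lie at 1.91 to 2.04-fold in the synovium and at 0.844 to 1.01-fold in the ileum, and the Zfp36l1 and Zc3h12a pairs lie above no change in both tissues.

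Whether the genotype effect differed between tissues was tested as effect in synovium minus effect in ileum over all 12 libraries. None of the 10 passed, against 12.1% of 16964 genes (5.28% with a positive and 6.8% with a negative difference), and 1 of the 10, Zfp36, had an unadjusted p under 0.05, against 29.5% of all genes. For Zfp36 the difference was 1.09 ± 0.33 (edgeR adjusted p = 0.0557), and with replicate number within tissue as a block it passed at 1.09 (edgeR adjusted p = 0.00203). DESeq2 called 1 of the 10, also Zfp36 (adjusted p = 0.0072), limma-voom called 0, and the adjusted p over all 20 other fits lay between 0.00203 and 0.119. It passed without WT synovium replicate 1 as well (1.42, 0.0185).

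Zc3h12a (0.34 ± 0.17), Zfp36l2 (0.26 ± 0.13), Elavl1 (0.21 ± 0.11) and Tia1 (-0.23 ± 0.13) had differences of 1 to 2 SE (edgeR adjusted p between 0.216 and 0.288). The difference of Zc3h12a passed without WT ileum replicate 2 (0.54, adjusted p = 0.0457). Zfp36l1 differed by -0.06 ± 0.18 (edgeR adjusted p = 0.886). Tial1, Khsrp, Hnrnpd and Rc3h1 differed by 0.03 ± 0.09, 0.11 ± 0.13, 0.01 ± 0.13 and 0.06 ± 0.15. The median difference was 0.08 over the 10 genes and -0.08 over all genes.

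More of the 10 genes passed between tissues than between genotypes. In WT mice 4 were higher in synovium than in ileum and 5 were lower, against 74.2% of all 16964 genes called in either direction, 38.2% as higher and 36% as lower. Zc3h12a showed the widest gap of the 10, with 20.7 to 22.7 CPM in WT synovium and 97.4 to 139 CPM in WT ileum (log2 fold change -2.45 ± 0.13, edgeR adjusted p = 2.2e-08). Zfp36 was lower in WT synovium by -1.09 ± 0.24 (edgeR adjusted p = 0.00152), and Elavl1 (-0.30 ± 0.08), Hnrnpd (-0.45 ± 0.10) and Rc3h1 (-0.40 ± 0.11) were lower by less. Zfp36l1 was higher in WT synovium by 0.91 ± 0.13 (edgeR adjusted p = 7.04e-05), and Zfp36l2 (0.45 ± 0.09), Tia1 (0.44 ± 0.10) and Tial1 (0.24 ± 0.07) were higher too. Khsrp did not pass (-0.12 ± 0.09, edgeR adjusted p = 0.259). The smaller differences moved with the scaling: Elavl1 (-0.16) and Rc3h1 (-0.25) did not pass on library size alone, and these genes and Hnrnpd did not pass in the FPKM fits.

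In TNFdARE mice 3 of the 10 were higher in synovium than in ileum and 3 were lower, against 66.7% of all genes, 31.6% as higher and 35% as lower. Zc3h12a stayed lower in synovium (-2.11 ± 0.13, edgeR adjusted p = 7.94e-08), with 35.2 to 37.3 CPM in TNFdARE synovium and 135 to 169 CPM in TNFdARE ileum. TNFdARE synovium lay below WT ileum too, which had 97.4 to 139 CPM. Zfp36l1 (0.86 ± 0.13), Zfp36l2 (0.71 ± 0.09) and Tial1 (0.28 ± 0.07) were higher in synovium, and Hnrnpd (-0.44 ± 0.09) and Rc3h1 (-0.34 ± 0.11) were lower. Zfp36, which differed between WT tissues, did not pass here (0.00 ± 0.23, edgeR adjusted p = 0.988): TNFdARE synovium averaged 167 ± 50.2 CPM and TNFdARE ileum 168 ± 20.1 CPM (SD, n = 3 each). The call of Rc3h1 was lost on library size alone (-0.26, adjusted p = 0.073), without TNFdARE ileum replicate 1 (0.0556) or 2 (0.0739) and without TNFdARE synovium replicate 3 (0.0596), and in the FPKM fits together with that of Hnrnpd. Tia1 (0.21 ± 0.09, edgeR adjusted p = 0.0649) passed with RLE factors (0.0408), on library size alone (0.0211), with DESeq2 (0.0329), in both FPKM fits and without TNFdARE ileum replicate 2 (0.0228), any 1 of the WT ileum replicates or WT synovium replicate 1 (0.0383). Between tissues the cell makeup differed throughout, for example in 11 of 11 neutrophil and 9 of 9 B cell markers that were higher in WT synovium than in WT ileum, and its part was not tested.

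Per kilobase of the principal transcript, which allows a rough comparison of genes with each other, the order of the 10 changed with tissue. Zfp36 had the highest level in ileum, at 60.1 ± 7.19 CPM per kilobase in TNFdARE and 64.5 ± 8.16 in WT, followed by Zc3h12a at 56.6 ± 6.63 and 42.7 ± 7.48. In TNFdARE ileum these overlapped. In synovium Zfp36l1 had the highest level, at 83.9 ± 9.4 CPM per kilobase in TNFdARE and 63.8 ± 5.52 in WT, and Zfp36l2 came next at 61.6 ± 6.71 and 44.1 ± 1.01, although it overlapped with Zfp36 (59.95 ± 18) in TNFdARE. Zc3h12a took the eighth place in TNFdARE synovium (13.1 ± 0.394) and the ninth in WT synovium (7.80 ± 0.369). Rc3h1 had the lowest mean in all 4 groups, from 6.91 ± 0.372 CPM per kilobase in TNFdARE synovium to 9.56 ± 1.64 in WT ileum. Its WT ileum libraries (7.90 to 11.2) overlapped those of Tia1 (9.47 to 12.4) and Elavl1 (11.1 to 13.1). The order depends on the length used. The merged exons of all transcripts span 15750 bases for Tia1 and 10363 for Elavl1, against 4477 and 5743 in the principal transcript. For Rc3h1 these lengths are 11308 and 11006 bases. Levels by merged exons were not computed. Khsrp, the gene of KSRP, kept to a narrow range of 24.5 to 26.7 CPM per kilobase over the 4 group means.

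**Figure D4:**
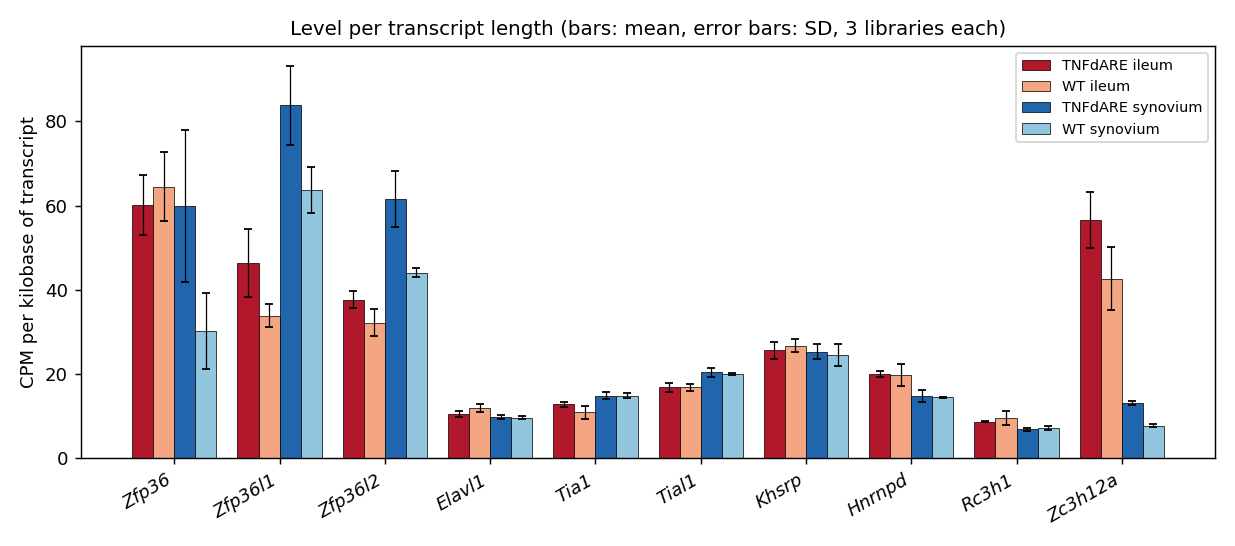
CPM per kilobase of the principal transcript (vertical axis, from 0) for the 10 genes in TNFdARE and WT ileum and synovium. Bars are means and error bars SD of 3 libraries; Zfp36 and Zc3h12a lead in the ileum, and Zfp36l1 and Zfp36l2 in the synovium.

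After the mean of each tissue was subtracted, Pearson's r of log2 CPM over the 12 libraries was positive for all pairs among the 4 genes called in the synovium. It was 0.88 between Zfp36l2 and Zc3h12a, 0.835 between Zfp36l1 and Zc3h12a and 0.799 between Zfp36l1 and Zfp36l2. Zfp36 had 0.739 with Zfp36l2, 0.72 with Zc3h12a and 0.59 with Zfp36l1, the last below the 0.624 of Tial1 with Khsrp, which were not called. Hnrnpd and Rc3h1 stood at the other end of the 45 pairs, with -0.708. Genotype is part of these values, and the points share it. The 4 genes were grouped by a call on genotype in these same libraries, so positive values among them are no independent result. Of 14170 genes expressed in both tissues, those most alike to Zc3h12a over the 12 libraries were Il1rl1 (r = 0.969), the IL-33 receptor, Itga5 (0.968), an integrin subunit, and Cxcl1 (0.963), a neutrophil chemokine. Those most alike to Zfp36l2 were Slc39a1 (0.971), a zinc importer, Adora2b (0.965), an adenosine receptor, and Hgf (0.96), hepatocyte growth factor. Zfp36l1 was most like Parp3 (0.96), Htra1 (0.955) and Hif1a (0.954), and Zfp36 most like Pkdcc (0.957), Anxa4 (0.947) and Ecm1 (0.927).

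The counts in the decay machinery that these proteins recruit are read against 23.8% of all genes called in the synovium and 5.68% in the ileum. Of 19 genes of deadenylation, 1 was higher in TNFdARE synovium, Btg1 (0.28 ± 0.08, edgeR adjusted p = 0.0353), and 1 was lower, Tob2 (-0.87 ± 0.14, 0.00595). Both encode adaptors that link deadenylases to other factors. With replicate number as a block 4 of the 19 passed. In the ileum 1 passed, Cnot9, a CCR4-NOT subunit that was lower in TNFdARE (-0.31 ± 0.06, edgeR adjusted p = 0.0459), and it did not pass with the block. Of 17 genes of decapping and 5′ to 3′ decay, 1 was higher in the synovium, Patl1 (0.28 ± 0.08, edgeR adjusted p = 0.0421), a scaffold of decapping. Without 1 library it passed only where WT replicate 2 was left out. Ddx6, the most abundant of these 17, had a log2 fold change of 0.12 ± 0.08 in the ileum (edgeR adjusted p = 0.329). There edgeR, DESeq2 and limma-voom called 0 of the 17, with 0 at an unadjusted p under 0.05.

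Of 16 genes of the exosome and its cofactors, 15 were matched, and 1 of these was higher in TNFdARE synovium, Exosc9 (0.34 ± 0.10, edgeR adjusted p = 0.0454), a ring subunit. It did not pass with the block or without any 1 of the 6 libraries. In the ileum edgeR, DESeq2 and limma-voom called 0 of the 15, with 1 at an unadjusted p under 0.05 by edgeR, and Skiv2l, the most abundant, stood at -0.02 ± 0.08. The median log2 fold changes in the synovium were 0.04 for deadenylation, 0.08 for decapping and 0.08 for the exosome, against 0.00 over all genes. Of 20 paralogs and other AU-rich or stem-loop binders, 16 could be tested in the synovium and 1 was higher, Zc3h12d (0.59 ± 0.17, edgeR adjusted p = 0.0424), a relative of Regnase-1, with 8.64 ± 0.718 CPM in TNFdARE and 5.86 ± 0.916 CPM in WT synovium, and it too did not pass without any 1 of the libraries. In the ileum edgeR called 0 of 18, with 7 at an unadjusted p under 0.05, DESeq2 called 4, limma-voom 0 and edgeR with the block 1, and Ybx1, the most abundant, stood at -0.30 ± 0.09 (edgeR adjusted p = 0.0845).

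Upstream, among 17 signalling genes and partners of the 10 proteins, 4 were higher in TNFdARE synovium and 1 was lower, a share near that of all genes called there (23.8%), with a median of 0.17. Malt1, the protease that cleaves Regnase-1 and Roquin in lymphocytes, averaged 60.1 ± 5 CPM in TNFdARE, against 31.7 ± 4.19 CPM in WT synovium. The rise was 0.95 ± 0.12 on the log2 scale (edgeR adjusted p = 0.00234). Its partner Bcl10 rose by 0.55 ± 0.11 (edgeR adjusted p = 0.0118). Ywhaz, a 14-3-3 protein of the kind that binds phosphorylated tristetraprolin, rose by 0.33 ± 0.07 (edgeR adjusted p = 0.0182), and Map2k3, a kinase upstream of p38, fell by 0.46 ± 0.12 on the log2 scale (edgeR adjusted p = 0.0316). With the muscle level as a covariate edgeR called 0 of these 17, and without 1 library it called 2 to 5. In the ileum edgeR called 0 of 17, with 5 at an unadjusted p under 0.05, DESeq2 called 3 and limma-voom 0, and Ywhab, the most abundant, stood at -0.15 ± 0.07 (edgeR adjusted p = 0.229).

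Known target transcripts were listed from general knowledge, and the choice was made with results of these data known. The shares given below for these lists therefore describe them and do not test them. A gene could also pass the filter on low counts through its TNFdARE libraries alone. Among 20 targets of tristetraprolin, 17 could be tested in the synovium, with a median log2 fold change of 1.90, against 0.00 over all genes. Of these 17, 13 were higher in TNFdARE, against 13.1% of all genes tested there. The 13 include Tnf (4.06 ± 0.15, edgeR adjusted p = 6.18e-05), the modified gene, whose allele lacks the AU-rich element. Tnf is also counted in the ileum tally below. Another was Ccl2, a monocyte chemokine, at 181 ± 15.8 CPM in TNFdARE and 2.12 ± 1.17 CPM in WT synovium (6.45 ± 0.38, edgeR adjusted p = 0.00053). Cxcl3, a neutrophil chemokine, rose by 4.26 ± 0.36 (edgeR adjusted p = 0.000638), and Plaur, the urokinase receptor, by 1.30 ± 0.14 (edgeR adjusted p = 0.00128). In the ileum 14 could be tested, with a median of 2.76, against 0.00 over all genes. Of these 14, 8 were higher, against 4.12% of all genes tested there. Among them were Ccl2 (4.05 ± 0.54), Il1rn (3.95 ± 0.54) and Plaur (1.57 ± 0.22), with edgeR adjusted p between 0.0389 and 0.0404. In the ileum limma-voom and both FPKM fits called 0, and edgeR with no filter on low counts called 3 of 20. DESeq2 called 10 of the 14, and edgeR with replicate number as a block called 9.

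Of 17 targets of Regnase-1 and Roquin, 5 of which are also on the tristetraprolin list, 15 could be tested in each tissue. Tnf, the modified gene, is among these 5 and is counted as higher in both tissues. In the synovium 5 were higher and 1 was lower, against 13.1% higher and 10.7% lower of all genes. Those higher included Cxcl1 (4.99 ± 0.52, edgeR adjusted p = 0.00278), Il1b (1.42 ± 0.22, 0.007) and Nfkbiz (0.97 ± 0.17, 0.00861), an inducible IκB protein. In the ileum 6 were higher, against 4.12% of all genes. They included Ptgs2 (1.27 ± 0.23, edgeR adjusted p = 0.0404), Il1b (4.93 ± 0.82, 0.0407) and Cxcl1 (4.21 ± 0.81, 0.0459). In the ileum 10 of the 15 passed with replicate number as a block and 14 with DESeq2. There limma-voom and both FPKM fits called 0, and edgeR with no filter on low counts called 2 of 17. Macrophage markers in both tissues, and neutrophil markers in the ileum, moved with these genes as given above. In the synovium the neutrophil sums overlapped between genotypes. A transcript level does not tell synthesis from decay.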

How the data were processed

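Poly-A RNA of 12 samples (TNFdARE and WT, ileum and synovium, 3 each) was sequenced as single reads with a stranded kit, per the labels' protocols. Bowtie2 2.3.3.1, cutadapt 1.15 and the build GRCm38 are named in the submitters' processing notes, and how reads were counted, with which strand setting, is not given in the sources used here. Raw counts were deposited by the authors for 46603 genes, and FPKM for 17046 genes. The counts were used as deposited, and the FPKM served as an alternative. No FPKM value is 0, although 5756 of them belong to a count of 0, so the deposited FPKM carry an offset or other adjustment that the file headers do not explain.

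Members were matched by symbol through the Ensembl IDs (98.9% of IDs matched GENCODE vM21). The members and all lists were chosen with earlier results of these data known. Within a tissue, 6 libraries were fitted with edgeR 4.0.16 (filterByExpr, TMM, robust quasi-likelihood test, Benjamini-Hochberg over all genes, threshold 0.05) in R 4.3.3; the effect difference and the tissue contrasts used all 12 libraries with 4 groups. SE is the log2 fold change divided by the square root of F. Printed CPM use TMM factors of all 12 libraries. DESeq2 1.42.0, limma 3.58.1 (voom on counts, trend on log2 FPKM with pseudocounts 1 and 0.1), RLE factors, library size only, no filter, a replicate block, covariates and each library left out were the alternatives. The FPKM fits kept all 17046 genes. The scripts were tested on simulated data.

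The labels do not say whether a replicate number pairs libraries within a tissue, and the pairing was taken from the data alone. Deviations from the group means of same-numbered TNFdARE and WT libraries were correlated over 10805 autosomal genes. The values were 0.233, 0.254 and 0.168 in the ileum and 0.485, 0.322 and 0.168 in the synovium. Across tissues the values were -0.121 to 0.148, so numbers were not taken to pair tissues. Libraries of unlike number were not compared in this way. Replicate 3 was the female sample of every group by Xist. Replicate 1 had the highest muscle marker sum in both synovium groups (8368 CPM in TNFdARE and 23607 CPM in WT). What same-numbered libraries share was not tested. Replicates varied 11.2 to 92.9 times more than counting error alone. A count of 0 allows up to 3 counts, or 0.185 to 0.21 CPM, for counting error only.

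All 10 genes, up to 4 called genes with the smallest p of each other list (or its most abundant gene) and the 3 genes most correlated with each gene called within a tissue (pseudocount 0.5 CPM) are named. Overlapping or near-identical genes that were matched in the counts had at most 15 counts in any library, except Ccl25. Zfp36l1 shares 51.5% of its 100-base windows with Gm26669 and Zfp36l1-ps, which had at most 8 and 1 counts against 1310 to 4568 for Zfp36l1. Per-kilobase levels use the length of the principal transcript, and UTR motifs were searched on the transcribed strand with overlaps counted.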

Additional observations from a re-analysis of the deposited data

Results flagged for a closer look

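None of the 10 genes had a genotype effect that passed as different between the tissues with all libraries, TMM scaling and no replicate block, and Zfp36 passed in 7 of 20 other fits and Zc3h12a in 1. Of 129 genes tested in the other lists, 13 had effects that differed between tissues, or 10.1%, which is no larger a share than the 12.1% of all genes. The values are effect in synovium minus effect in ileum with edgeR's adjusted p, and the calls moved when a replicate was left out, with 0 to 5 tristetraprolin targets (2 with all libraries), 1 to 5 immediate early genes (2) and 0 to 1 exosome genes (1). Nfkbiz differed by 1.13 ± 0.21 (0.97 in synovium and -0.18 in ileum, adjusted p = 0.00907). Il1b differed by -3.54 ± 0.82 (1.42 and 4.93, adjusted p = 0.0225), and Il1rn by -2.19 ± 0.58 (1.78 and 3.95, adjusted p = 0.0359). Lcn2 differed by -3.93 ± 1.09 (0.37 and 4.27, adjusted p = 0.0424), and Ets1 by -0.95 ± 0.23 (-0.24 and 0.68, adjusted p = 0.0264). Among decay genes and partners, Cnot9 differed by 0.58 ± 0.10 (0.30 in synovium and -0.31 in ileum, adjusted p = 0.00741), Exosc9 by 0.59 ± 0.16 (0.34 and -0.28, adjusted p = 0.0381), Tob2 by -0.76 ± 0.18 (-0.87 and -0.14, adjusted p = 0.0243), Ywhaz by 0.41 ± 0.09 (0.33 and -0.11, adjusted p = 0.0188) and Gigyf1 by -0.55 ± 0.12 (-0.21 and 0.33, adjusted p = 0.0193). Celf2, an AU-rich binder, differed by -1.05 ± 0.30 (0.15 and 1.17, adjusted p = 0.0447). Of the immediate early genes, Klf6 differed by 0.70 ± 0.13 (0.55 and -0.17, adjusted p = 0.0104) and Egr3 by -3.15 ± 0.91 (-1.31 and 1.81, adjusted p = 0.0486).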

How the results depend on the processing

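The 4 calls in the synovium were made on 3 libraries per group, at adjusted p values of which that of Zfp36 lay near the threshold, and the ileum calls over all genes rested on single libraries. The 10 genes had at least 318 counts in every library, and the part of depth in their spread was not tested. The calls of the 10 genes were recomputed under each alternative, and the cause of the changes below was not tested. In the ileum DESeq2 and the replicate block called 1 of the 10 and the fit over all 12 libraries called 2, against 0, and leaving out a replicate gave 0 to 2. In the synovium both FPKM fits called 1 and the muscle covariate called 2, against 4, and leaving out a replicate gave 2 to 4. For the effect difference RLE factors, library size only, DESeq2, the replicate block and both FPKM fits called 1, Zfp36 in each, against 0, and leaving out a replicate gave 0 to 1. The counts between tissues stayed within 1.5 times of 9 and 6 in all settings. The replicate block treats same-numbered samples of a tissue as pairs, which the labels do not state. It changed the calls of Zfp36l1 in the ileum and of Zfp36 in the effect difference. No other call of the 10 genes in the genotype comparisons changed with it.

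The log2 fold changes that changed sign were as follows. Library size alone gave 0.012 for Zfp36 and 0.056 for Khsrp in the ileum, -0.033 for Tial1, -0.0597 for Hnrnpd and -0.0103 for Rc3h1 in the effect difference, 0.022 for Khsrp between WT tissues, and 0.068 for Zfp36 and 0.063 for Khsrp between TNFdARE tissues. FPKM with a pseudocount of 1 gave -0.0022 for Elavl1, -0.064 for Tia1 and -0.00069 for Tial1 in the synovium, -0.011 for Tial1, -0.0896 for Hnrnpd and -0.082 for Rc3h1 in the effect difference, and 0.12 for Zfp36, 0.035 for Elavl1 and 0.091 for Khsrp between TNFdARE tissues. FPKM with a pseudocount of 0.1 gave -0.0026 for Elavl1, -0.076 for Tia1 and -0.00088 for Tial1 in the synovium, -0.012 for Tial1, -0.095 for Hnrnpd and -0.093 for Rc3h1 in the effect difference, and 0.13 for Zfp36, 0.039 for Elavl1 and 0.094 for Khsrp between TNFdARE tissues. The muscle covariate gave -0.021 for Elavl1, -0.075 for Tia1, -0.046 for Tial1, -0.14 for Khsrp and -0.076 for Hnrnpd in the synovium. RLE factors gave 0.0091 for Zfp36l1 in the effect difference, and 0.033 for Zfp36 and 0.019 for Khsrp between TNFdARE tissues. DESeq2 gave 0.00897 for Zfp36l1 in the effect difference, and 0.033 for Zfp36 and 0.019 for Khsrp between TNFdARE tissues. limma-voom gave -0.0061 for Hnrnpd in the effect difference. The replicate block gave -0.0062 for Hnrnpd in the effect difference.

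Leaving out a replicate gave -0.10 to 0.024 for Khsrp, -0.026 to 0.068 for Tial1 and -0.049 to 0.13 for Hnrnpd in the ileum, -0.014 to 0.13 for Hnrnpd in the synovium, -0.12 to 0.16 for Zfp36l1, -0.062 to 0.15 for Hnrnpd, -0.0015 to 0.25 for Rc3h1 and -0.012 to 0.13 for Tial1 in the effect difference, and -0.28 to 0.13 for Zfp36 and -0.069 to 0.067 for Khsrp between TNFdARE tissues.

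Over all genes the ileum count of 879 became 1379 on library size alone (1218 higher and 161 lower), 2715 with DESeq2, 0 with limma-voom, 0 and 1 in the FPKM fits and 2722 in the fit over all 12 libraries. Library size alone moved the median log2 fold change of all ileum genes to 0.11, against 0.00. The synovium count of 3713 became 622 with the muscle covariate, 2141 without TNFdARE replicate 3 and 2217 without WT replicate 3, and the effect difference count of 2050 became 3193 with DESeq2 and 1015 to 3506 without a replicate.

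Counts in the other lists moved with the settings too. Leaving out a replicate gave 0 to 11 tristetraprolin targets in the ileum, against 8, and 12 to 14 in the synovium, against 13. For Regnase-1 and Roquin targets it gave 0 to 14 in the ileum and 4 to 6 in the synovium, against 6 in each, and for immediate early genes 0 to 4 in the ileum, against 0, and 1 to 7 in the synovium, against 2.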
